A study of Mus musculus with 27 samples.

Results

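The expression of 9 genes for the transcription factors that set hepatocyte identity was followed through mouse liver cells in culture: Hnf4a, Foxa1, Foxa2, Foxa3, Cebpa, Onecut1, Onecut2, Prox1 and Nr5a2. They were picked by gene name from 21848 genes in a bulk RNA-sequencing count table, and each was found once. The 27 libraries used fall into 9 conditions of 3 libraries each. Freshly isolated hepatocytes served as the reference, and hepatocyte organoids (HepOrgs) at passage 2 were kept for 1 week (7 days) or 2 weeks (14 days) in HM-Wnt or in MM medium. HM-Wnt is the expansion medium, which holds EGF, HGF, FGF7, FGF10, RSPO1, the GSK3 inhibitor CHIR and the TGF-beta receptor inhibitor A83-01. Both media hold WNT3a-conditioned medium and a ROCK inhibitor, and MM is a simpler medium that adds only these to the basal medium. Periportal assembloids were made in MM medium from 10 HepOrgs, 1000 cholangiocytes (bile duct cells) and either 250 (homeostatic) or 2500 (fibrotic-like) portal mesenchymal cells per well, and were collected after 7 days or 18 days (2.5 weeks).

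The labels give the strain C57BL/6 and the genotype wild type, with 1 exception. Assembloids also hold reporter cells, since per the study's methods their cholangiocytes came from tdTomato mice and their mesenchymal cells from mice with the PDGFRα-H2B-GFP reporter. The third library of freshly isolated hepatocytes is titled wild type but carries the genotype MDR2-het, and it was kept with its title. HepOrgs were picked by hand to leave out bile duct organoids and mesenchyme, so they are a selected population. In assembloids a library holds RNA of 3 cell types, and a lower level of a hepatocyte factor there cannot be told apart between fewer hepatocytes and less RNA per hepatocyte. The labels do not say whether the 3 libraries of a condition came from separate animals or cultures, so the p-values measure only the spread between these libraries.

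These factors form the core of the hepatocyte programme. HNF4A is a nuclear receptor that binds the regulatory regions of most liver-specific genes, the FOXA proteins open chromatin ahead of other factors, C/EBP alpha drives metabolic genes of the mature hepatocyte, and the ONECUT proteins act upstream of Foxa2 and Hnf4a in liver development. PROX1 is needed for the early liver bud to grow and is also a defining factor of lymphatic endothelium, and NR5A2 (LRH-1) controls bile acid and cholesterol genes. Several are not limited to hepatocytes: FOXA1, FOXA2, ONECUT1 and ONECUT2 are also made in bile duct cells.

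Total counts ran from 30289364 to 65348596 per library. In 26 of the 27 libraries, 14016 to 16018 genes were detected, but replicate 2 of the homeostatic assembloids at 1 week had 8465. That library held 0 counts of 5 of the 9 factors and at most 3 counts of 6 of them, which allows up to 0.085 CPM (3 counts, counting error only). Its summed level of 12 hepatocyte markers was 4557 CPM, against 57714 and 92644 CPM in the other two replicates, while 6 ductal markers (Krt19, Krt7, Epcam, Sox9, Cftr and Cldn4) summed to 7484 CPM, against 45.7 and 465 CPM. Fibrotic-like replicate 3 at 1 week (7721 CPM) and replicate 2 at 2.5 weeks (5387 CPM) were also rich in ductal RNA, while the 15 libraries without added cholangiocytes lay between 6.29 and 162 CPM. These sums leave out Spp1 (osteopontin), the seventh gene of the ductal list, which is not limited to bile ducts. With Spp1 the list summed to 8.17 to 95.6 CPM in fresh cells, 3826 to 15453 CPM in HepOrgs and 5360 to 15438 CPM in assembloids, so that HepOrgs and assembloids overlapped. Immune markers summed to 28.9 to 280 CPM in fresh cells and to at most 62 CPM in HepOrgs, except for 762 CPM in replicate 3 of MM at 2 weeks. Hepatocyte markers summed to 42507 to 103010 CPM in the freshly isolated cells and HepOrgs, except for 1 MM library at 32689 CPM. Endothelial markers summed to 29.2 to 133 CPM in the freshly isolated cells and to at most 2.04 CPM in HepOrgs.

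Positions are those of GRCm39. Hnf4a (ENSMUSG00000017950) spans chr2:163348728-163414830 on the plus strand, and Foxa2 (ENSMUSG00000037025) lies on the same chromosome at 147884797 to 147889005 on the minus strand. Cebpa (ENSMUSG00000034957), a gene of 1 exon, lies at 34818718 to 34821353 and Foxa3 (ENSMUSG00000040891) at 18747209 to 18757471, both on chromosome 7. Prox1 (ENSMUSG00000010175, 189850232 to 189904637) and Nr5a2 (ENSMUSG00000026398, 136770303 to 136888186) lie on chromosome 1, Foxa1 (ENSMUSG00000035451) at 57587414 to 57593702 on chromosome 12, and Onecut1 (ENSMUSG00000043013) at 74769118 to 74800594 on chromosome 9. Onecut2 is ENSMUSG00000045991. Long non-coding genes overlap 6 of the 9, among them Hnf4aos and Prox1os on the opposite strand. No strand setting for the counting is given in the sources used here, so reads of such a partner may be part of a factor's count.

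Since these factors are known to bind each other's promoters, the 250 bases before the start of each gene's main transcript were searched on both strands for 6 short binding motifs: CAAAGTCCA (HNF4), GTTAAT (HNF1 core), TGTTTAC (FOXA), TTGCNNAA (C/EBP), ATTGAT (ONECUT) and CAAGGTCA (NR5A2). HNF1 is not among the factors followed here, and no motif of PROX1 was searched. The promoters of Hnf4a, Foxa1 and Foxa2 held a match, that of Hnf4a only to the HNF1 core. Those of Foxa3, Cebpa, Onecut1, Prox1 and Nr5a2 held none, while Onecut2 was not searched. The sequences of the first 3, and that of Cebpa, the factor with the lowest log2 fold change in 3 of the 4 comparisons of HepOrgs with fresh cells, are given 5′ to 3′ along the gene, with matches in capitals:
Hnf4a (chr2:163388819-163389068, plus strand): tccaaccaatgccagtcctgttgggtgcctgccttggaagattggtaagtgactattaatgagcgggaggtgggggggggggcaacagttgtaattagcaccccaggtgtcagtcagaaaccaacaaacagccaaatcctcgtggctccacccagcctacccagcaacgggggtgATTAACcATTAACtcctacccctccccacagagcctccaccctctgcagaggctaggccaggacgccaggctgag
Foxa1 (chr12:57592945-57593194, minus strand): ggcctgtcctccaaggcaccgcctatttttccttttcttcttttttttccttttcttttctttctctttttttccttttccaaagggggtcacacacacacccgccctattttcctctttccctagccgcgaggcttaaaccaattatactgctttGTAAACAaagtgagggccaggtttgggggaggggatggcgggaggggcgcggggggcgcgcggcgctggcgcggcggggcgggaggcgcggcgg
Foxa2 (chr2:147889006-147889255, minus strand): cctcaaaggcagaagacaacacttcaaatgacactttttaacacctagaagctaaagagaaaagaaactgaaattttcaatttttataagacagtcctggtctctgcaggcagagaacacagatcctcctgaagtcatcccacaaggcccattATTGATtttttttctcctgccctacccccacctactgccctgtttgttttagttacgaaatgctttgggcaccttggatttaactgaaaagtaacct
Cebpa (chr7:34818478-34818727, plus strand): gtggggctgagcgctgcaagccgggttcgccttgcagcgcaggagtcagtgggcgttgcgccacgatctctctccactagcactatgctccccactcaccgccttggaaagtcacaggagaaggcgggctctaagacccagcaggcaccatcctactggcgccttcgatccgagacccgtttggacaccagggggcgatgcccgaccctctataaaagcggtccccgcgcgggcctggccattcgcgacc
Hnf4a carried the HNF1 core at 2 places, at -75 to -70 and -68 to -63 from the start. Of 21616 promoters of that length, 6.31% held this core. Foxa1 carried the FOXA motif at -94 to -88, as did 2.72% of promoters, and Foxa2 the ONECUT motif at -97 to -92, as did 6.53%. For the motifs with no match in a factor, 0.375% (HNF4), 9.37% (C/EBP) and 1.37% (NR5A2) of promoters held one. The share of all promoters with a match to any of the 6 motifs was not computed. Whether these factors hold more matches than other genes is therefore not known. A match of letters is not evidence of binding in these cells.

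The first question was how the levels of the factors in HepOrgs compare with those in freshly isolated hepatocytes. Relative to freshly isolated hepatocytes, 8 of the 9 factors were lower in HepOrgs after 1 week in HM-Wnt, 5 after 2 weeks in HM-Wnt, 8 after 1 week in MM and 7 after 2 weeks in MM, and none was higher (edgeR quasi-likelihood test, Benjamini-Hochberg adjusted p below 0.05 over 13396 genes). Many other genes moved in the same comparisons, since 49.7%, 51.8%, 42.8% and 39.7% of all genes were called, and 24.8%, 25.7%, 21.3% and 20% were called lower. In MM at 2 weeks 19.7% were called higher. DESeq2 called 8, 7, 8 and 7 of the factors, beside 49.3%, 49.9%, 43% and 40.3% of genes. The 4 comparisons share the same 3 fresh libraries. The median log2 fold change of the 9 factors was -1.20, -0.90, -1.22 and -0.91 in that order, beside medians of all genes between -0.01 and 0.03. In TMM-normalised CPM (counts scaled to library size so that most genes match between libraries), all HepOrg libraries lay below all fresh libraries for 5, 4, 6 and 6 factors. The same held for 25.5%, 27%, 24.7% and 25.1% of 14655 genes. When all 27 libraries were fitted together and shared 1 estimate of the spread, 2, 2, 2 and 1 factors passed: Hnf4a in all 4, Cebpa in HM-Wnt and Foxa1 in MM at 1 week. In the separate fit without fresh replicate 3, the library labelled MDR2-het, 5, 4, 6 and 5 factors were called lower. Of all genes, 43.3%, 45.6%, 34.9% and 33.5% were then called in either direction.

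**Figure D1:**
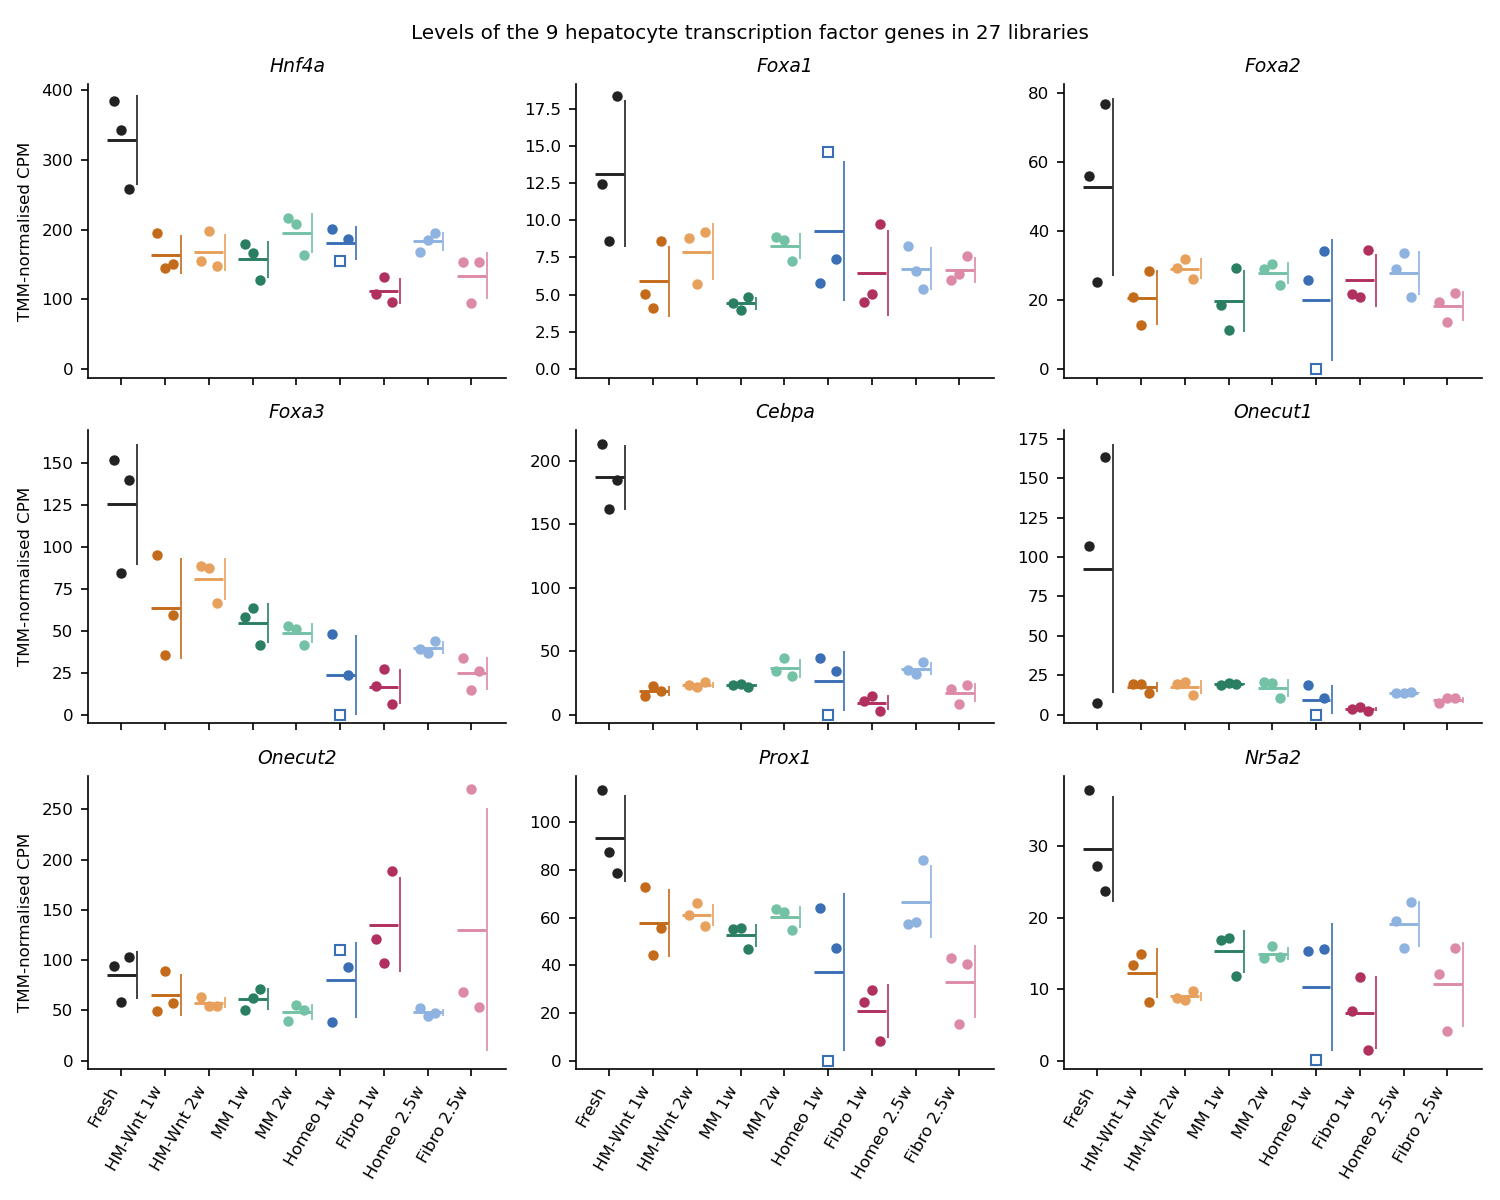
TMM-normalised CPM (vertical axis, linear) of each factor in the 27 libraries, 1 panel per gene and 9 conditions along the horizontal axis. Points are libraries, horizontal lines are means, thin vertical lines are the SD of 3 libraries (cut at 0), and the open square is replicate 2 of the homeostatic assembloids at 1 week. The 3 fresh libraries stand above all others for Cebpa (162 to 213 CPM), and Onecut2 reaches 270 CPM in a fibrotic-like assembloid.

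Cebpa had the lowest log2 fold change of the 9 factors in 3 of the 4 comparisons, all but MM at 2 weeks, where Onecut1 (-2.42) was lower. C/EBP alpha is a basic leucine zipper factor that restrains hepatocyte division and drives urea cycle and gluconeogenesis genes. Its level was 213, 162 and 185 TMM-normalised CPM in the 3 fresh libraries. In HM-Wnt it was 14.6, 22.4 and 18.7 CPM at 1 week and 23.3, 21.6 and 25.9 CPM at 2 weeks. In MM it was 23.1, 24.3 and 22.2 CPM at 1 week and 34.4, 44.5 and 30.6 CPM at 2 weeks. No culture library came near the fresh ones. The log2 fold change against fresh cells was -3.38 ± 0.20 (SE, edgeR adjusted p = 9.74e-08) in HM-Wnt at 1 week and -3.02 ± 0.20 (adjusted p = 1.78e-07) at 2 weeks. In MM it was -3.02 ± 0.20 (adjusted p = 2.30e-07) at 1 week and -2.34 ± 0.19 (adjusted p = 1.46e-06) at 2 weeks. Cebpa was the only factor called in all 4 comparisons on the log2(TPM + 1) scale as well. In the fit of all 27 libraries its MM calls were lost (adjusted p = 0.0654 and 0.155).

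Hnf4a and Nr5a2, the nuclear receptors of the set, were lower in all 4 HepOrg conditions. Hnf4a stood at 385, 343 and 259 CPM in fresh cells and at 128 to 216 CPM in the 12 HepOrg libraries, so the groups did not overlap. Its log2 fold change was -1.05 ± 0.22 (SE, adjusted p = 0.00144) and -1.01 ± 0.22 (adjusted p = 0.00172) in HM-Wnt at 1 and 2 weeks. In MM it was -1.07 ± 0.22 (adjusted p = 0.00165) and -0.73 ± 0.22 (adjusted p = 0.0160). The last call was lost without fresh replicate 1 (-0.58) or MM replicate 3 (-0.58). Even so, Hnf4a RNA remained abundant, between the 95.1 and the 96.8 percentile of all genes per exonic length in every condition.

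Nr5a2 was at 37.9, 27.2 and 23.7 CPM in fresh cells. In HM-Wnt it was at 13.4, 15.0 and 8.27 CPM at 1 week and at 8.82, 8.52 and 9.70 CPM at 2 weeks, against 16.9, 17.1, 11.8, 14.4, 16.0 and 14.5 CPM in the 6 MM libraries. Every fresh library was above every HepOrg library. The log2 fold change was -1.33 ± 0.24 (SE, adjusted p = 0.000535) and -1.75 ± 0.24 (adjusted p = 6.10e-05) in HM-Wnt, and -0.97 ± 0.24 at both times in MM (adjusted p = 0.00542 and 0.00553).

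The FOXA genes were called in some of the 4 comparisons. Foxa3, the member tied most closely to mature liver, was at 152, 84.4 and 140 CPM in fresh cells and at 35.8 to 95.2 CPM in HepOrgs. It was called in HM-Wnt at 1 week (log2 fold change -1.03 ± 0.33 SE, adjusted p = 0.0188) and in MM at 1 week (-1.22 ± 0.33, adjusted p = 0.00936) and 2 weeks (-1.36 ± 0.33, adjusted p = 0.00535). The HM-Wnt call was lost without fresh replicate 1 (-0.84) or 3 (-0.92) and without HM-Wnt replicate 2 (-0.73) or 3 (-0.97).

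Foxa1 had 12.5, 8.58 and 18.4 CPM in fresh cells, 5.02, 4.09 and 8.58 CPM in HM-Wnt and 4.41, 3.96 and 4.86 CPM in MM at 1 week. It was called in both 1-week comparisons, by -1.20 ± 0.32 (SE, adjusted p = 0.00719) in HM-Wnt and -1.60 ± 0.32 (adjusted p = 0.00158) in MM. At 2 weeks the HepOrg libraries held 5.71 to 9.19 CPM and neither medium was called. Foxa2 had 55.9, 25.3 and 76.8 CPM in fresh cells and 11.4 to 31.9 CPM in HepOrgs, a range that takes in the lowest fresh library. It was called at 1 week in HM-Wnt (-1.39 ± 0.40, adjusted p = 0.0109) and in MM (-1.45 ± 0.40, adjusted p = 0.0105), and both calls were lost without fresh replicate 3 (-1.05 in MM).

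Onecut1, which encodes HNF6, could be read less firmly. The fresh libraries held 107, 7.40 and 164 CPM, and the second of these was below all 12 HepOrg libraries (10.4 to 20.8 CPM). The 4 conditions were called at -2.45 ± 0.70 (SE, adjusted p = 0.0107), -2.43 ± 0.70 (adjusted p = 0.0105), -2.28 ± 0.70 (adjusted p = 0.0180) and -2.42 ± 0.70 (adjusted p = 0.0143), in the order HM-Wnt and MM, 1 week before 2 weeks. Without fresh replicate 2 the values became -2.82 to -2.99, and without fresh replicate 3 they became -1.56 to -1.74 and none passed. The MM calls were also lost without MM replicate 1 (-2.25) or 3 (-2.24) at 1 week and without MM replicate 3 (-2.12) at 2 weeks. Its paralogue Onecut2 held 94.0, 58.5 and 103 CPM in fresh cells and 39.1 to 89.0 CPM in HepOrgs. It was called only in MM at 2 weeks, at -0.81 ± 0.24 (adjusted p = 0.0176), and not without fresh replicate 1 (-0.70) or 3 (-0.62) or MM replicate 1 (-0.69) or 3 (-0.79). Fresh replicate 2 had the lowest level of Foxa1, Foxa2, Foxa3, Cebpa, Onecut1 and Onecut2 among the fresh cells and the highest summed hepatocyte markers (103010 CPM). Without it all 9 factors were called lower in all 4 conditions, beside 47.7%, 49.8%, 40.7% and 39.2% of all genes called in either direction.

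Prox1 moved least of the factors called in every condition. Fresh cells held 114, 87.6 and 78.6 CPM and HepOrgs 44.4 to 73.0 CPM, without overlap. The log2 fold change was -0.74 ± 0.20 (SE, adjusted p = 0.00716) and -0.65 ± 0.20 (adjusted p = 0.0138) in HM-Wnt and -0.84 ± 0.20 (adjusted p = 0.00393) and -0.62 ± 0.20 (adjusted p = 0.0228) in MM. The 2-week calls were lost without fresh replicate 1 (-0.47 and -0.42), in HM-Wnt without its replicate 3 (-0.57) and in MM without its replicate 3 (-0.51).

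**Figure D2:**
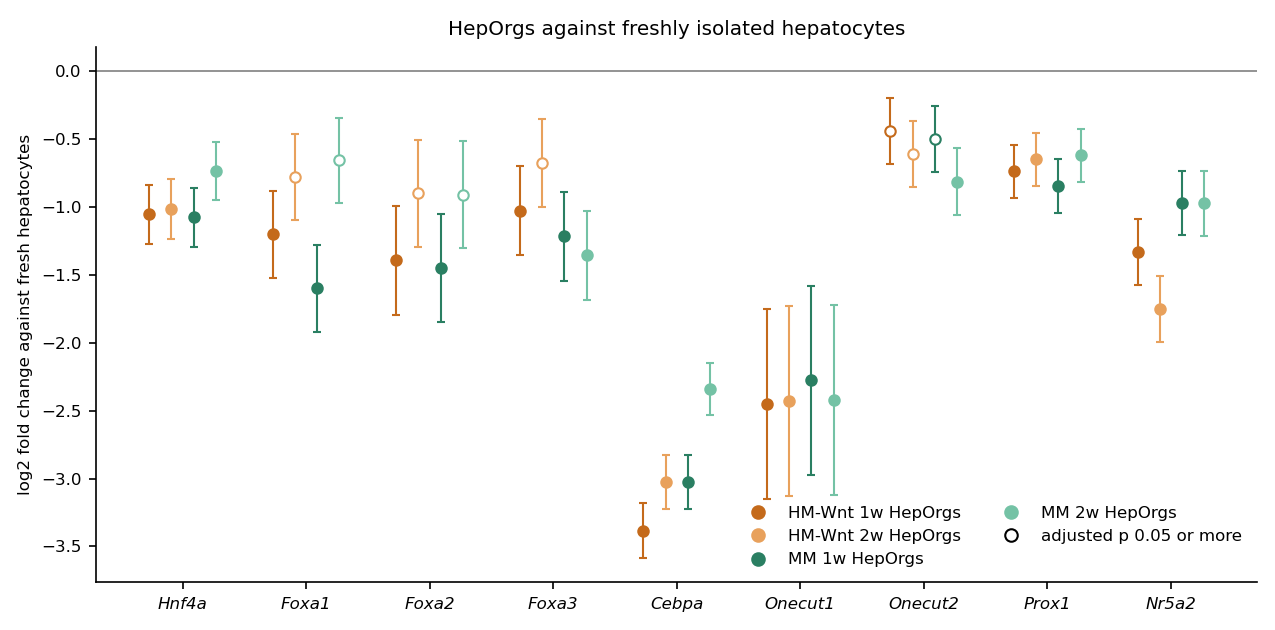
Log2 fold change (vertical axis) of each factor in HepOrgs against freshly isolated hepatocytes, with its SE, for HM-Wnt and MM at 1 and 2 weeks (colours). Filled points have an edgeR adjusted p below 0.05. All points lie below 0, with Cebpa between -3.38 and -2.34 and Onecut2 between -0.81 and -0.44.

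The scale of measurement sets how much of this fall is seen. The deposited TPM divide by all RNA of a library, and in these comparisons the median gene rose by 0.40, 0.68, 0.47 and 0.40 on the log2(TPM + 1) scale. On that scale the difference of Cebpa was -2.83, -2.18, -2.38 and -1.83. In HM-Wnt at 2 weeks 5 of the 8 factors tested lay above 0, namely Onecut2 (0.21), Foxa3 (0.18), Prox1 (0.17), Foxa1 (0.08) and Foxa2 (0.06). Onecut2 also lay above 0 at 1 week in HM-Wnt (0.08) and MM (0.13). Relative to the median gene, each of the 8 factors that passed the TPM filter still lay below 0 in all 4 comparisons, from -3.23 for Cebpa to -0.32 for Onecut2, both in HM-Wnt at 1 week. Nr5a2 did not pass that filter (TPM of at least 1 in 3 libraries). By the mean of deposited TPM, Hnf4a (22.5 ± 4.44, SD, n = 3), Cebpa (323 ± 60.1), Onecut1 (14.6 ± 12.6) and Nr5a2 (1.14 ± 0.315) were highest in fresh cells, against 8 of the 9 factors by TMM-normalised CPM. Foxa3 (61.1 ± 4.72 TPM) and Prox1 (9.06 ± 0.274 TPM) were highest in HM-Wnt at 2 weeks, and Foxa1 (14.4 ± 10.3 TPM), Foxa2 (86.2 ± 49.2 TPM) and Onecut2 (30.6 ± 18.9 TPM) in fibrotic-like assembloids at 1 week. Only for Cebpa did the range of the highest condition lie apart from that of the next.

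Ranked by TMM-normalised CPM, only a few steps in the order of conditions were wider than the spread of the libraries. Fresh cells stood apart from the next condition for Hnf4a and Cebpa (MM at 2 weeks for both) and Nr5a2 (homeostatic assembloids at 2.5 weeks). For Foxa3 the homeostatic assembloids at 2.5 weeks (39.9 ± 3.82 CPM, SD, n = 3) stood apart from the fibrotic-like ones at 2.5 weeks (24.8 ± 9.82 CPM), and for Onecut1 the fibrotic-like assembloids at 2.5 weeks (9.53 ± 1.92 CPM) from those at 1 week (3.82 ± 1.32 CPM). For Foxa1, Foxa2, Onecut2 and Prox1 every pair of neighbours overlapped.

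Levels of different factors were compared per exonic length, since the deposited lengths mostly include introns. In fresh cells the mean was 167 ± 30.0 TPM per exonic length (SD, n = 3) for Cebpa, 153 ± 28.5 for Hnf4a and 146 ± 48.1 for Foxa3, and these 3 overlap in their spread. Onecut1 (38.9 ± 33.7), Foxa2 (37.2 ± 19.8) and Prox1 (24.5 ± 5.13) came next. Onecut2 (12.5 ± 4.09), Foxa1 (9.33 ± 3.97) and Nr5a2 (8.08 ± 2.14) were lowest. In HM-Wnt at 1 week Hnf4a (101 ± 26.2) and Foxa3 (98.9 ± 53.6) led, and Cebpa was at 21.5 ± 3.00.

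The share of each paralogue within its family followed from these levels. Foxa3 made up 76.7 ± 5.1% (SD, n = 3) of FOXA RNA per exonic length in fresh cells, 78.8 ± 6.7% and 78.2 ± 2.1% in HM-Wnt and 78.3 ± 10.5% and 68.9 ± 0.8% in MM. In fibrotic-like assembloids at 1 week its share was 51.6, 63.4 and 19.5%, and Foxa2 made up 62.7% in the third of these, which is the one rich in ductal RNA. Onecut1 made up 76.1, 26.1 and 81.6% of ONECUT RNA in the fresh libraries and 36.5 to 59.8% in HepOrgs. In fibrotic-like assembloids at 1 week Onecut2 made up 91.5, 87.3 and 96.5%, above all 15 fresh and HepOrg libraries, whose highest share was 73.9%. In homeostatic assembloids at 1 week the share was 42.3, 100 and 76.1%, the second in the library with 0 counts of Onecut1. No test was run on the shares.

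**Figure D3:**
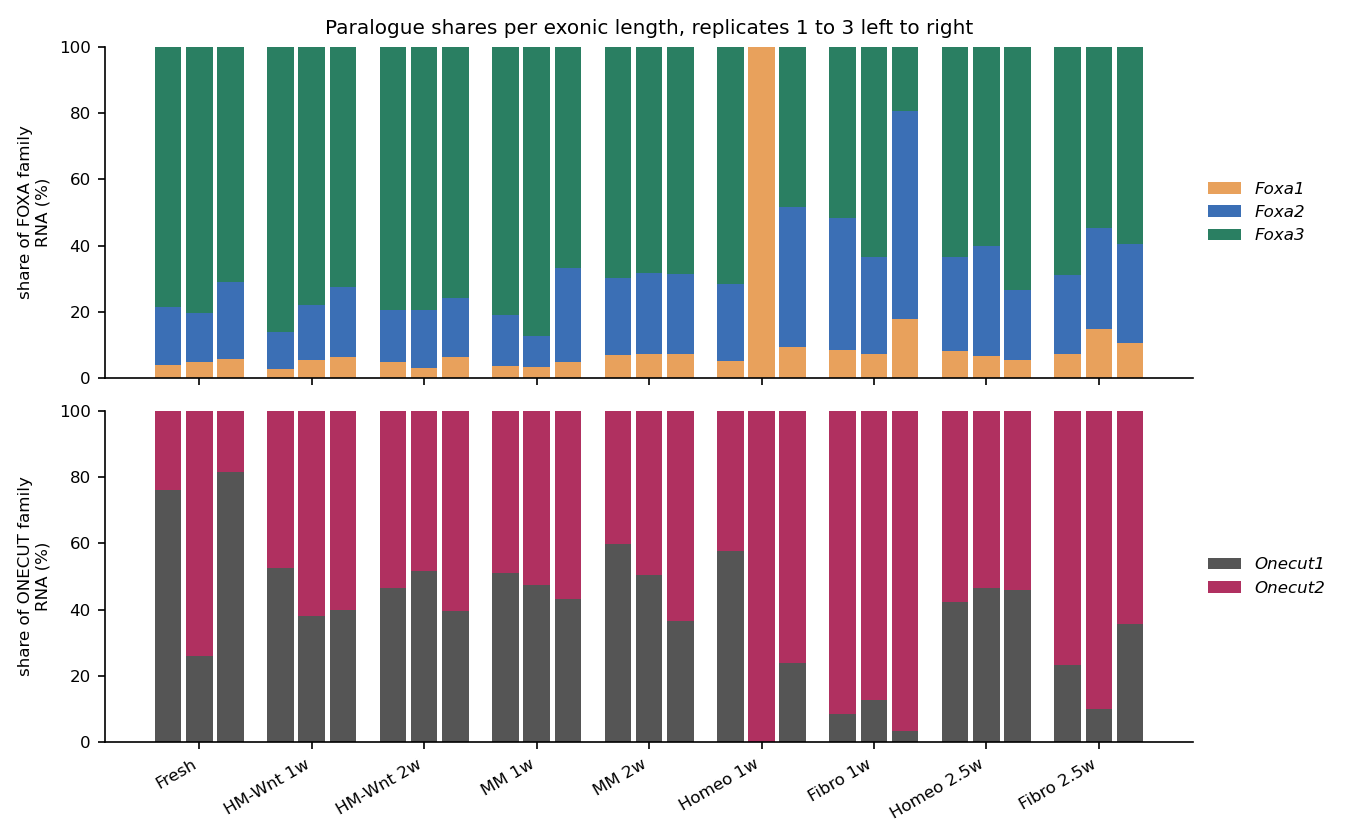
Share (%) of each paralogue in the summed FOXA RNA (top) and ONECUT RNA (bottom) per exonic length, 1 bar per library with replicates 1 to 3 left to right in each condition. Foxa3 is the main FOXA RNA in fresh cells and HepOrgs (66.7 to 87.3%), and Onecut2 takes 87.3 to 96.5% of ONECUT RNA in fibrotic-like assembloids at 1 week.

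The medium was compared next, since MM is the medium in which assembloids are grown. At 1 week none of the 9 factors differed between MM and HM-Wnt (edgeR adjusted p below 0.05), none had an unadjusted p below 0.05, and DESeq2 and limma also called none, while 2.98% of 12989 genes were called, 1.76% higher and 1.22% lower. The log2 fold changes ran from -0.41 to 0.35. At 2 weeks 2 factors were higher in MM, Cebpa and Nr5a2, beside 11.5% of genes called, 6.84% higher and 4.61% lower. Cebpa was higher by 0.69 ± 0.19 (SE, adjusted p = 0.0351) and Nr5a2 by 0.79 ± 0.22 (adjusted p = 0.0425), with all MM libraries above all HM-Wnt libraries. By levels, Foxa3 was in turn below HM-Wnt in all MM libraries (41.6 to 53.1 against 66.4 to 88.7 CPM). Its difference of -0.67 was not called, and the other 6 factors lay between -0.19 and 0.29. Non-overlap of this kind held for 34.9% of genes.

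Both calls at 2 weeks were narrow. Nr5a2 was lost when any 1 of the 6 libraries was left out (0.71 to 0.84), and Cebpa when any but MM replicate 3 was left out (0.49 to 0.76). In these HepOrgs the libraries with the same replicate number deviated together from their condition means, in all 18 pairs. What such libraries share was not tested. With the number as a block the same 2 factors were called at 2 weeks, beside 19.6% of all genes, and none at 1 week, beside 9.48%. DESeq2 also called both, and limma on log2(TPM + 1) called neither.

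Time in culture gave no call among the factors. Over both media, the change from 1 to 2 weeks ran from -0.23 (Onecut2) to 0.69 (Foxa1) with edgeR, where 0.0077% of genes were called. Foxa1, Foxa2 and Cebpa had an unadjusted p below 0.05, and DESeq2 called Foxa1 and Cebpa, beside 3.06% of genes. The change of the medium effect between the time points was not called for any factor or gene with edgeR (0% of genes, factors from -0.46 to 0.55). No factor had an unadjusted p below 0.05 there, and DESeq2 and limma called none.

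Known target genes of these factors were read from lists drawn up from textbook knowledge, and the most abundant genes of each list are named. Whether a target's change follows from a factor was not tested. Against fresh cells, 24.8% and 25.7% of all genes were called lower in HM-Wnt at 1 and 2 weeks, and 21.3% and 20% in MM. Called higher were 24.9%, 26.1%, 21.5% and 19.7% in the same order. These shares stand beside every list read against fresh cells. Of 15 targets of HNF4A tested, 13 fell in HM-Wnt at 1 week, 12 at 2 weeks, 13 in MM at 1 week and 10 at 2 weeks, and none rose, with medians of -1.63, -2.40, -1.22 and -1.37 on the log2 scale. In HM-Wnt at 1 week Apoa2 changed by -3.71 ± 0.69 (SE, adjusted p = 0.000693), Ttr, the thyroid hormone carrier transthyretin, by -2.63 ± 0.69 (adjusted p = 0.00672), and Apoc3, an apolipoprotein of triglyceride-rich particles, by -1.63 ± 0.29 (adjusted p = 0.000476). Apoa1, the main protein of HDL, was not called (-0.72).

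Of 8 targets of C/EBP alpha, 6, 7, 7 and 5 fell and 1 rose in each, with medians of -5.33, -5.87, -3.44 and -2.43. Cps1, the first enzyme of the urea cycle, had 122513 to 158243 counts in fresh cells and 532 to 1320 in HM-Wnt at 1 week. Arg1, its last enzyme, changed by -7.50 ± 1.55 (SE, adjusted p = 0.00144) there, while Alb, serum albumin, was not called (-0.56). Of 7 LRH-1 targets tested, 6 fell in each of the 4 comparisons (medians -4.23, -5.37, -3.01 and -2.86). Abcb11, the bile salt export pump, had 11840 to 17738 counts in fresh cells and 364 to 1469 in HM-Wnt at 1 week. Cyp7a1, the rate-limiting enzyme of bile acid synthesis, changed by -4.96 ± 0.95 (adjusted p = 0.00082). Scarb1, the HDL receptor, was not called (-0.70).

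The 9 FOXA targets split. Between 5 and 7 fell and 2 rose, with medians of -1.54, -1.60, -1.94 and -2.44, and Igfbp1, an insulin-like growth factor binding protein, rose by 5.36 ± 0.58 (SE, adjusted p = 9.12e-06) in HM-Wnt at 1 week. Some targets stand on several lists, such as Alb, Apoa1 and Ttr. Of 25 other liver transcription factors tested, 15, 16, 11 and 10 fell and 1, 3, 0 and 1 rose. In HM-Wnt at 1 week Creb3l3, a liver regulator of lipid and fasting genes, changed by -1.66 ± 0.21 (adjusted p = 3.50e-05), Zbtb20 by -1.09 ± 0.20 (adjusted p = 0.000613) and Nr1h4, the bile acid receptor FXR, by -1.98 ± 0.44 (adjusted p = 0.00212), while Rxra was not called (-0.63). Of 9 transcription factors of bile ducts, 4, 4, 5 and 5 rose and 1, 1, 1 and 0 fell. Elf3, an epithelial ETS factor, rose by 4.82 ± 0.41 (adjusted p = 1.21e-06) in HM-Wnt at 1 week, and Id1 (0.79), Hes1 (-0.17) and Sox9 (0.32) were not called. In the same comparisons 3, 5, 5 and 5 of 6 cholangiocyte markers rose and all 8 endothelial markers fell. Of 8 immune markers 7, 6, 6 and 4 fell and 1 rose in each. The part of these cells in the factors' changes was not tested.

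Between the media at 2 weeks, where Cebpa and Nr5a2 were higher in MM, 4 of 7 targets of C/EBP alpha and 3 of 7 of LRH-1 were higher in MM and none was lower. G6pc, the last enzyme of gluconeogenesis, was higher by 1.83 ± 0.29 (SE, adjusted p = 0.00353), Fgf21, a fasting hormone, by 1.10 ± 0.29 (adjusted p = 0.0351) and Abcb11 by 2.73 ± 0.72 (adjusted p = 0.0335), while Alb (-0.85) and Scarb1 (-0.48) were not called. Of HNF4A targets 7 of 15 were higher and none lower, among them Apoa2 (2.65 ± 0.69, adjusted p = 0.0326), and of other liver factors 7 of 25 were higher and none lower, among them Creb3l3 (1.44 ± 0.20, adjusted p = 0.00211). Of FOXA targets 2 of 9 were higher and 2 lower, and Igfbp1 was lower (-2.38 ± 0.31, adjusted p = 0.00127). The median over all genes was -0.02, and 6.84% of 12989 genes were called higher in MM and 4.61% lower.

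In assembloids the question was how the factors stand when bile duct cells and mesenchyme are added. With all 12 assembloid libraries no factor and no gene was called between the fibrotic-like and homeostatic ratio at either time (edgeR, 0% of 14253 genes), nor over time or for the change of the ratio effect. Hnf4a at 1 week and Onecut2 at 2.5 weeks had an unadjusted p below 0.05, and DESeq2 and limma called no factor in either. DESeq2 called 5.33% and 1.95% of all genes at the 2 times. For time and for the change of the ratio effect no factor had an unadjusted p below 0.05, and none was called by DESeq2 or limma. The medians of all genes were 0.20 at 1 week and 0.03 at 2.5 weeks, and factors are given beside them. Replicate 2 of the homeostatic assembloids at 1 week, with its 0 counts, widened the SE to 1.37 to 1.52 for 6 of the 9 factors at 1 week. Each gene had 1 estimate of the spread over all 12 libraries, so the 2.5-week comparison was affected as well. There the SE was 1.49 for Prox1, 1.46 for Foxa3, 1.39 for Onecut1 and 1.38 for Nr5a2. The lack of a call for these factors at 2.5 weeks therefore does not show equal levels.

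Levels in TMM-normalised CPM are given first for the factors that stood furthest apart. At 1 week Cebpa held 44.7, 0 and 34.8 CPM in homeostatic and 11.2, 14.8 and 3.06 CPM in fibrotic-like assembloids. Prox1 held 64.2, 0 and 47.4 against 24.6, 29.7 and 8.26 CPM. Apart from the library at 0, the homeostatic values were above all fibrotic-like ones for both genes. Onecut1 held 18.6, 0 and 10.5 against 3.99, 5.04 and 2.42 CPM. Hnf4a held 202, 155 and 186 against 108, 132 and 95.5 CPM, the only factor with no overlap when all 6 libraries were kept, as for 23.5% of genes. The 155 CPM of Hnf4a came from the homeostatic library in which Cebpa, Prox1 and Onecut1 were at 0. Onecut2 ran the other way, with 38.1, 110 and 93.3 against 121, 97.1 and 188 CPM. Its 110 CPM came from the homeostatic library rich in ductal RNA.

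Without that library the 1-week comparison called 1 factor, Onecut1, at -1.99 (edgeR adjusted p = 0.0407, from 0.0407 to 0.983 over its 12 alternatives), beside 8.01% of 14746 genes. Cebpa (-2.10), Prox1 (-1.48), Nr5a2 (-1.26), Foxa3 (-1.14), Hnf4a (-0.85), Foxa2 (-0.27) and Foxa1 (-0.09) were lower and Onecut2 (0.99) higher, with none of these called. Hnf4a, Cebpa, Onecut1, Prox1 and Nr5a2 were then lower in all fibrotic-like libraries and Onecut2 higher, 6 of 9 factors against 49.7% of genes that did not overlap. At 2.5 weeks no factor was called without it, beside 0.258% of genes.

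At 2.5 weeks the homeostatic libraries were close together. Cebpa held 35.0, 31.8 and 41.7 CPM against 20.5, 8.63 and 23.2 CPM in fibrotic-like assembloids. Hnf4a held 168, 185 and 196 against 153, 95.3 and 154 CPM, and Onecut2 52.0, 44.4 and 47.7 against 68.0, 270 and 53.3 CPM. Foxa3, Cebpa, Hnf4a, Onecut1 and Prox1 were lower in all fibrotic-like libraries and Onecut2 higher, 6 of 9 factors, while 36.2% of genes did not overlap. The log2 fold changes ran from -1.08 (Cebpa) to 1.39 (Onecut2). The lowest Cebpa and the highest Onecut2 value came from the same library, fibrotic-like replicate 2, which held 5387 CPM of ductal markers against 646 and 767 CPM in the other two.

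**Figure D4:**
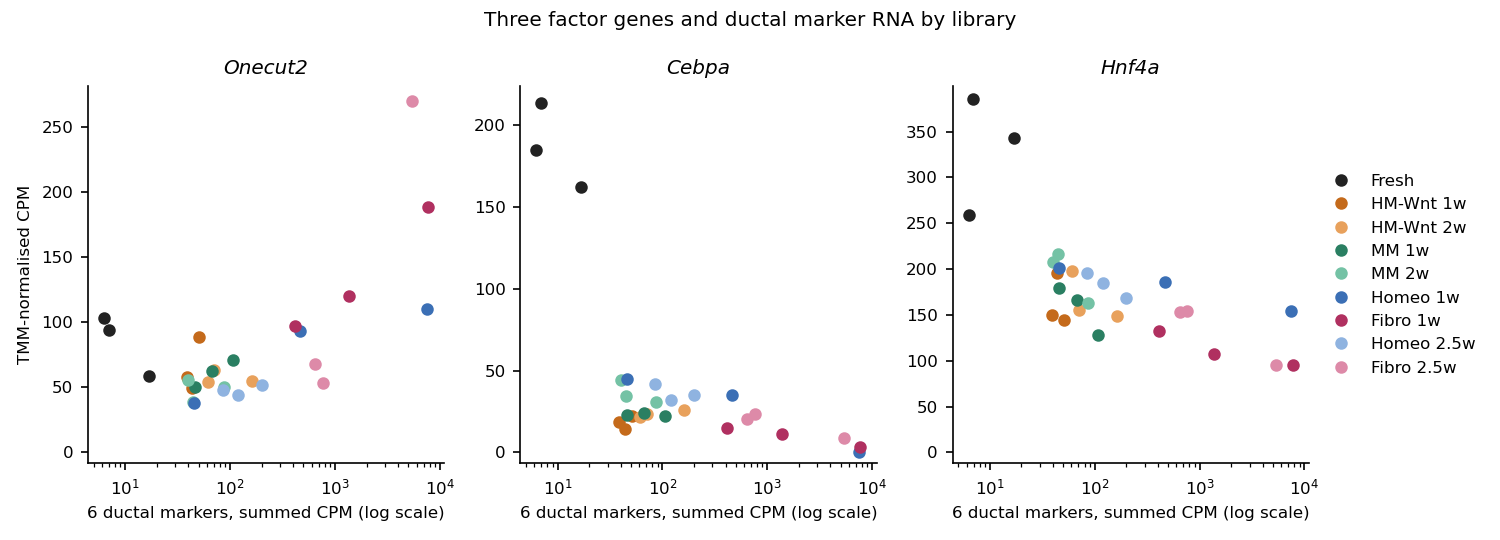
TMM-normalised CPM of Onecut2, Cebpa and Hnf4a (vertical axes, linear) against the summed CPM of 6 ductal markers (horizontal axis, log scale), 1 point per library, coloured by condition. Among assembloids the 3 libraries with 5387 CPM or more of ductal markers have Onecut2 at 110 to 270 CPM and Cebpa at 0 to 8.63 CPM. The 110 and the 0 CPM belong to homeostatic replicate 2 at 1 week, with 8465 genes detected. Fibrotic-like replicate 1 at 1 week has Onecut2 at 121 CPM with 1371 CPM of ductal markers. The fresh libraries sit at the left with Cebpa at 162 or more.

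No marker of the added cells was called between the ratios at either time, where edgeR called 0% of 14253 genes. Since no gene at all passed there, the lack of a call says nothing about the markers in particular. Their summed levels were as follows. The 6 ductal markers summed to 45.7, 7484 and 465 CPM in homeostatic and to 1371, 414 and 7721 CPM in fibrotic-like assembloids at 1 week. At 2.5 weeks the ranges were 84.6 to 199.5 and 646 to 5387 CPM. Mesenchyme markers (9 genes) summed to 112 to 1490 CPM in homeostatic and 603 to 9230 CPM in fibrotic-like assembloids at 1 week, with overlap, as for the ductal markers. At 2.5 weeks they summed to 180 to 271 CPM in homeostatic and 1473 to 7504 CPM in fibrotic-like assembloids, and hepatocyte markers to 71237 to 78105 and 24532 to 72744 CPM. The part of these cells in the factors' levels was not tested. On the deposited TPM scale Hnf4a was level between the ratios, with 21.8 ± 5.41 and 21.6 ± 3.41 TPM (SD, n = 3) at 1 week and 17.2 ± 0.872 and 18.0 ± 0.694 TPM at 2.5 weeks, where the median gene rose by 0.87 and 0.41 on the log2(TPM + 1) scale. With all libraries kept, the 1-week difference turned its direction on that scale for 7 of the 9 factors. These were Foxa3 (1.26, against -0.56 with edgeR), Cebpa (0.90, against -1.51), Prox1 (0.48, against -0.89), Foxa1 (0.18, against -0.58), Nr5a2 (0.09, against -0.67), Onecut1 (0.02, against -1.40) and Hnf4a (0.01, against -0.75). Homeostatic replicate 2, with 0 counts of Foxa3, Cebpa, Prox1 and Onecut1, is part of these 1-week differences. Cebpa held 88.5, 0 and 107 TPM in homeostatic and 46.5, 63.0 and 19.7 TPM in fibrotic-like assembloids. Foxa3 held 24.4, 0 and 18.6 against 18.0, 29.8 and 10.7 TPM, with overlap also apart from the 0. The part of that library in the turns was not tested. At 2.5 weeks Hnf4a (0.06, against -0.48) and Foxa1 (0.48, against -0.05) turned.

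Set against MM HepOrgs of the same age, homeostatic assembloids at 1 week had no factor called (edgeR, 0% of 13733 genes, factors from -1.19 to 1.12, median gene -0.21). No factor had an unadjusted p below 0.05, and DESeq2 and limma called none. Without homeostatic replicate 2 there was again no call, and Cebpa (0.78), Foxa2 (0.61), Foxa1 (0.58) and Hnf4a (0.30) had values above 0 and Foxa3 (-0.60) and Onecut1 (-0.41) below 0. Cebpa then held 44.7 and 34.8 CPM against 22.2 to 24.3 CPM in the HepOrgs.

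Fibrotic-like assembloids at 1 week ran from -2.38 (Onecut1) to 1.11 (Onecut2) against MM HepOrgs, with no factor called by edgeR, DESeq2 or limma. edgeR called 0% of 13733 genes there, DESeq2 5.16% and limma 1.89%. Onecut2 had an unadjusted p below 0.05. Onecut1, Foxa3, Cebpa, Prox1 and Nr5a2 were lower in all 3 libraries than in all HepOrg libraries and Onecut2 was higher, 6 of 9 factors against 48.5% of genes. In the fit without homeostatic replicate 2, Onecut1 (-2.39, adjusted p = 0.0117, from 0.0117 to 1.00 over 13 alternatives) and Foxa3 (-1.74, adjusted p = 0.0495, from 0.0495 to 1.00) were called, beside 23% of 14308 genes. Both groups of this comparison kept their 3 libraries in that fit. With homeostatic replicate 2 in the fit, the SE had been 1.65 for Onecut1 and 1.67 for Foxa3. Later assembloids (18 days) and MM HepOrgs (14 days) differ in age and were not compared by a test. Side by side, Cebpa held 36.2 ± 5.06 CPM (SD, n = 3) in homeostatic and 17.4 ± 7.74 CPM in fibrotic-like assembloids, 36.5 ± 7.18 CPM in MM HepOrgs at 2 weeks and 187 ± 25.6 CPM in fresh cells.

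The genes whose pattern over the 27 libraries was most like that of each factor were sought among 7494 genes with a mean log2 CPM of at least 3. The correlation is a description, since libraries share conditions and cell makeup. For Prox1 the closest were Tex2 and Apob, the structural protein of lipoproteins (Pearson r = 0.99 each). For Foxa3 they were F5, coagulation factor V, and C2cd2l (0.99 each), for Cebpa Chpt1 and Pipox, a peroxisomal oxidase (0.99 each), and for Nr5a2 Inhca and Maob, monoamine oxidase B (0.98 each). Foxa2 went with Rcc1l and Rusf1 (0.98 each) and Onecut1 with Gstp3 and Plcxd2 (0.96 each). Hnf4a went with Ddi2 and Slc25a15, the mitochondrial ornithine carrier (0.93 each), Onecut2 with Mprip (0.84) and Atp2b1 (0.81), and Foxa1 with Nsun2 (0.82) and Iars2 (0.80).

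One library carried part of this likeness. Without homeostatic replicate 2 at 1 week, r fell to 0.78 and 0.72 for the partners of Foxa2, and to 0.95 and 0.95 for those of Prox1, and 6 of the 18 pairs remained the closest. Among the factors themselves, Foxa3 and Prox1 followed each other most closely over 27 libraries (r = 0.98, and 0.90 over 26), and Hnf4a and Cebpa over 26 libraries (0.91, and 0.57 over 27). Prox1 and Nr5a2 had 0.96 over 27 and 0.88 over 26 libraries, Foxa1 and Foxa2 -0.13 and 0.81. Onecut2 ran against Prox1 (-0.44 and -0.72) and Hnf4a (-0.47 and -0.47).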

How the data were processed

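Bulk RNA was measured by SMART-seq2 in 27 libraries, 3 per condition. Per the labels and methods, the authors aligned reads with STAR to GRCm39, counted them per gene with featureCounts, and deposited counts, TPM and gene lengths in 1 table. The deposited TPM equal counts divided by the deposited length and scaled, and for 80.8% of genes matched to the annotation that length lies within 5% of the gene span, introns included. The table holds 10 further libraries, which were not used. Levels between genes were therefore computed per exonic length, and levels between libraries as TMM-normalised CPM. Genes were tested on the deposited counts with edgeR 4.0.16 (quasi-likelihood test, TMM, filterByExpr with a minimum count of 10 and total of 15, Benjamini-Hochberg adjustment, threshold 0.05, R 4.3.3), in fits of 15 (fresh cells and HepOrgs), 12 (HepOrgs), 12 (assembloids) and 9 libraries (1-week MM HepOrgs and assembloids). Scripts were tested on simulated data. Alternatives were DESeq2 1.42.0, limma 3.58.1 on log2(TPM + 1) with TPM of at least 1 in 3 libraries, a block for the replicate number, no count filter, each library left out in turn, and a joint fit of all 27 libraries. Replicate numbers were checked for pairing. In HepOrgs 18 of 18 same-number pairs deviated together (correlations 0.127 to 0.503), so the block is given beside those results. No 2 libraries of the same condition agreed within sampling noise, and pairs across conditions were not compared. Depth was 30289364 to 65348596 counts per library, and floors cover counting error only. The factors and the lists were chosen with earlier results of these data known. The rule for named genes was all 9 factors, up to 4 genes of a list with the highest mean log2 CPM, and the 2 genes most alike in pattern to each factor. Promoter sequences are from the GRCm39 primary assembly, placed by the starts of the GENCODE canonical transcripts. Rows of the table were matched to samples by the library name in each sample's description.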

Additional observations from a re-analysis of the deposited data

Results flagged for a closer look

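Reads of the reporter transgenes, which no comparison used, appeared in the assembloids. The eGFP reads ran from 0.418 to 1067 CPM in the 12 assembloid libraries, while the highest of the 15 libraries with no reporter cells had 0.0243 CPM. The tdTomato reads ran from 0.186 to 113 CPM in the same 12 libraries, and the 15 others had 0 CPM.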

How the results depend on the processing

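Against fresh cells, limma on log2(TPM + 1) called 2, 1, 1 and 1 factors (HM-Wnt at 1 and 2 weeks, then MM) and the fit of all 27 libraries 2, 2, 2 and 1, and on the TPM scale 5 of 8 factors in HM-Wnt at 2 weeks lay above 0, of which Prox1 (0.17) had been called lower. The number of calls over libraries left out ran from 5 to 9, 4 to 9, 6 to 9 and 3 to 9. Between media at 2 weeks, 1 factor was called with no filter on low counts, 0 with limma and 0 with all 27 libraries, and 0 to 1 with a library left out. DESeq2 called 2 factors over HepOrg time. In assembloids, leaving out a library gave 0 to 1 factors between ratios at 1 week, 0 to 2 between fibrotic-like assembloids and MM HepOrgs, and 0 to 0 elsewhere. The fresh condition was highest for 4 factors by deposited TPM (2 to 5 on that scale with a library left out) and for 8 by TMM-normalised CPM. Of the 18 genes most alike, 6 remained without homeostatic replicate 2. Causes were not tested. In assembloids 6 of 18 same-number pairs deviated together, and numbers there were taken as names only. In the fit with fresh cells 19 of 30 did, but these 30 also take in pairs between HepOrg conditions. Pairs with fresh cells were not counted apart, so whether numbers pair samples there was not settled. With the replicate block 8, 6, 8 and 7 factors were called against fresh cells. In HepOrgs the block changed no call of a factor, with 1232 genes called between media at 1 week (387 without it) and 2544 (1488) at 2 weeks. Over all genes, the fit of 27 libraries called 2893, 3247, 2005 and 1890 against fresh cells, where the separate fit called 6663, 6939, 5739 and 5323, and DESeq2 called 1381 between media at 1 week. Each comparison rests on 3 libraries per condition.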
